A study of Mus musculus with 18 samples.

Results

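The cytosolic heat shock chaperones described here are 10 genes: Hspa1a, Hspa1b, Hspb1, Hsph1, Dnajb1, Hsp90aa1, Hsp90ab1, Hspa8, Bag3 and Cryab. A member was measured by every probe set annotated to its symbol alone, the brightest by mean value serving as the main probe set and the others as a check. By this rule 9 of the 10 genes had 23 probe sets among the 18194 genes of the array, and 7 of the 9 were bright enough to enter the tests, which covered 10916 genes. Hsp90ab1 was not analysed here, and Hspa1a and Bag3, below the brightness limit, are given by their values, with 1 fitted result for Hspa1a without that limit.

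The arrays measured RNA of the whole brain of mouse pups of both sexes at postnatal day 8. Pups carried 0, 1 or 2 intact copies of the locus disrupted in the Mt-KO line, a metallothionein knockout bred onto C57BL/6J for at least 7 generations. They are called Mt-KO (-/-), heterozygous (+/-) and wild-type (+/+), all on the C57BL/6J background. In each genotype, 5 pups received lead acetate at 50 mg/kg and 5 pups of matched weight received saline, 2 times a day and 4 h apart on postnatal days 7 and 8, and all were killed with CO2 and cervical dislocation 6 h after the last dose. RNA of the 5 pups was pooled and put on 1 Mouse Genome 430 2.0 array, so that each of the 6 combinations of genotype and treatment is a single pool without a replicate. A pool averages its pups and hides the spread between them. The comparison asks whether acute lead exposure in the period of synapse formation changes brain transcripts, and whether the change depends on metallothionein, a family of small proteins that bind metals.

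Heat shock chaperones hold unfolded proteins, keep them from aggregating and help them to refold. HSP70 proteins bind and release their clients in an ATP-driven cycle, which J-domain proteins start and nucleotide exchange factors end, while HSP90 proteins take over clients such as kinases and steroid receptors late in folding. Some members (Hspa8, Hsp90ab1) are made in all cells at all times, and others (Hspa1a, Hspa1b, Hspb1, Dnajb1, Hsph1) are switched on by the transcription factor HSF1 when proteins are damaged by heat, oxidants or metals.

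HSF1 binds arrays of the 5-base unit NGAAN in alternating orientation, and the promoters of 3 inducible members are shown because they are the part of these genes that such a stress response would act on. The sequences are those of RefSeq on GRCm38.p6, cover the 250 bases before the annotated start in the direction of transcription, and have in capitals each GAANNTTC, 2 units that face each other. Hspa1b lies at chr17:34959239-34959488 (minus strand), Hspa1a at chr17:34972157-34972406 (minus strand) and Hspb1 at chr5:135887669-135887918 (plus strand).
Hspa1b: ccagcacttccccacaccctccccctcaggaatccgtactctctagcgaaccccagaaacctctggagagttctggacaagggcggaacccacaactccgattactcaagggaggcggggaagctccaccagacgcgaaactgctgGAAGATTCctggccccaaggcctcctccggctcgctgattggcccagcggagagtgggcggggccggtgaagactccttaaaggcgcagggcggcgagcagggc
Hspa1a: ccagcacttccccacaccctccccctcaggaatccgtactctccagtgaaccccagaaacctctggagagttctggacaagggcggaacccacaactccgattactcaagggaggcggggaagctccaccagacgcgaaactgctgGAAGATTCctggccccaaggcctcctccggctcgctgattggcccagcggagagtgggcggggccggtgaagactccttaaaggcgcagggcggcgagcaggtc
Hspb1: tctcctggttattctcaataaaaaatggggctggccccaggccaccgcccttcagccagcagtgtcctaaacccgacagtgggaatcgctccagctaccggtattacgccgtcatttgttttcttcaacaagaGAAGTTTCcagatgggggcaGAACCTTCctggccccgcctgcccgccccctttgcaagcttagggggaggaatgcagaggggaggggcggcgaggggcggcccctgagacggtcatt

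The Hspa1b and Hspa1a promoters differed at 3 of 250 bases and held GAAGATTC at the same place, starting at position -104 from the start of transcription. The Hspb1 promoter held GAAGTTTC at -117 and GAACCTTC at -97. RefSeq windows reaching 50 bases past the start were matched for 6 members, as 8 windows. In them the Hsph1 window held TTCTGGAAAGTTC, 3 units in a row, at 37 or 16 bases past the start, depending on which of its annotated starts is used, and Bag3 held GAAGTTTC at 43. Neither Dnajb1 window had a GAANNTTC or a TTCNNGAA. Both of these motifs read the same on either strand, and they overlap where 3 units follow each other. Of all 32851 windows of this length, 7.86% held GAANNTTC, 8.52% held TTCNNGAA, 15.1% held one or the other, and 0.603% held 3 units in a row (GAANNTTCNNGAA or TTCNNGAANNTTC). A match describes letters, not a bound site. Hspa8, Hsp90aa1, Hsp90ab1 and Cryab had no entry.

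The arrays differ in ways that touch every result below. Over the genes tested the median RMA value, a log2 signal per probe set, lay between 10.87 in wild-type lead and 11.05 in wild-type saline. The median gene was accordingly 0.09 higher with lead in Mt-KO, 0.15 higher in heterozygous and 0.18 lower (-0.18) in wild-type brain, and single-pool differences called relative to the median gene have this shift taken off. The 3' probe set of Gapdh exceeded the 5' one. This excess was 0.54 to 0.82 in 5 pools and 1.19 in the sixth, wild-type saline. The labels do not say which metallothionein genes were disrupted. Mt1 followed them, at 11.71 with lead and 11.68 with saline in Mt-KO, 12.87 with lead and 12.45 with saline in heterozygous, and 13.30 with lead and 13.17 with saline in wild-type brain, and Mt2 lay at 11.82 to 11.87 in the Mt-KO pools and at 12.05 to 12.73 in the others. The Y-linked gene Eif2s3y measured 11.16 in Mt-KO lead and 6.50 in Mt-KO saline brain, against 9.45 to 10.45 in the other 4 pools. Xist, also sex-linked, went the other way, at 10.23 in Mt-KO lead and 12.75 in Mt-KO saline brain, against 11.91 to 12.19 in the other 4. Sex-linked signal was thus not balanced within the Mt-KO pair, and its part in the Mt-KO lead differences was not tested. Markers of neurons averaged 13.71 to 14.36 across pools and those of astrocytes 12.25 to 12.74, so the markers of the labelled tissue were present. In pooled tissue, fewer cells of a type and less RNA per cell cannot be told apart.

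Hspa1b and Hspa1a encode the stress-inducible HSP70, whose transcript in unstressed brain is scarce and climbs within hours of heat or oxidant damage. The main Hspa1b probe set measured 9.66 with lead and 9.69 with saline in Mt-KO brain, 9.90 with lead and 9.64 with saline in heterozygous brain, and 9.64 with lead and 9.90 with saline in wild-type brain (RMA, log2). The heterozygous lead pool and the wild-type saline pool were the high ones, and the other 4 lay within 0.05 of each other, so lead and saline pools overlapped. The heterozygous lead pool also had the highest mean of the 5 measured pituitary markers of 6 listed, 9.88 against 8.76 to 8.98 in the other pools, with growth hormone (Gh) at 11.48 against 9.29 to 9.83, and the part of this in the chaperone values was not tested. Fitted over the 3 genotypes, lead minus saline was -0.01 (SE 0.11, 95% interval -0.23 to 0.21, limma adjusted p = 1.0). Both dimmer Hspa1b probe sets were also higher with lead in the heterozygous pair, by 0.31 and 0.22, and spanned at most 0.42 over the pools.

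The single Hspa1a probe set was below the brightness limit of the tests. Its values were 9.19 in the Mt-KO lead pool against 9.16 in the Mt-KO saline pool, 9.32 with lead against 9.13 with saline in heterozygous brain, and 8.90 with lead against 9.35 with saline in wild-type brain. The wild-type lead pool was the lowest of the 6 and the wild-type saline pool the highest, a difference of -0.45, or -0.26 relative to the median gene. With GC-RMA the wild-type difference was -0.08 and the 6 pools spanned 0.23. The 2 genes are near-identical copies next to each other on chromosome 17, and their probe sets may share signal, so that which copy gave it is uncertain.

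**Figure D1:**
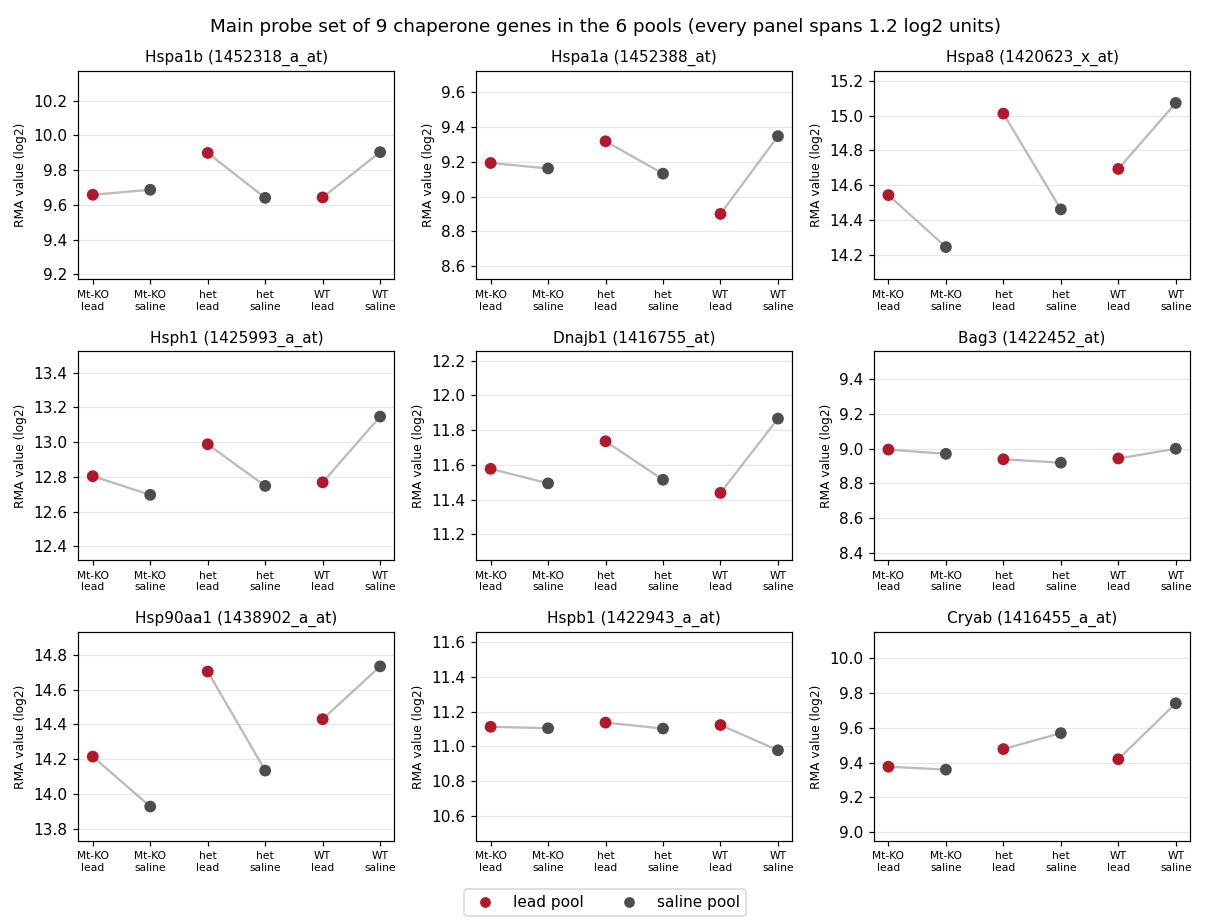
RMA value (log2, y axis) of the main probe set of 9 chaperone genes in each of the 6 pools (x axis), lead pools in red and saline pools in grey, with a line joining the pools of a genotype; each point is 1 pool of 5 pups and every panel spans the same height. The wild-type saline pool is the highest for Hspa8 (15.07), Hsp90aa1 (14.73), Hsph1 (13.15), Dnajb1 (11.87) and Cryab (9.74), while Hspb1 and Bag3 are nearly level.

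Hspa8, the constitutive HSP70 that also strips clathrin from vesicles at synapses, was the member with the widest span. It measured 14.54 with lead and 14.24 with saline in Mt-KO brain. In heterozygous brain it was 15.01 with lead and 14.46 with saline, and in wild-type brain 14.69 with lead and 15.07 with saline. Lead was thus the higher side in 2 genotypes and the lower in wild-type, and the fitted lead difference was 0.16 (SE 0.37, 95% interval -0.56 to 0.88, limma adjusted p = 1.0). Once the arrays were brought to one distribution by quantile normalization, the 6 pools lay between 14.62 and 14.70, a span of 0.09 where the deposited values span 0.83. With GC-RMA the span was 0.26. The probe sets 1455789_x_at and 1420622_a_at gave the same order of lead and saline in every genotype, and the x in the first name, as in that of the main one, marks probes that can bind related transcripts. The dim probe set 1431182_at did not, with differences of 0.01 in Mt-KO, -0.06 in heterozygous and -0.27 in wild-type brain. With GC-RMA these were -0.42, 0.36 and 0.12.

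Hsp90aa1, the inducible HSP90 of the cytosol, moved with Hspa8. Its main probe set measured 14.22 with lead and 13.93 with saline in Mt-KO, 14.70 with lead and 14.13 with saline in heterozygous, and 14.43 with lead and 14.73 with saline in wild-type brain. The high pools were again heterozygous lead and wild-type saline. The fitted lead difference was 0.18 (SE 0.33, limma adjusted p = 1.0), and quantile normalization narrowed the span to 0.23, against 0.81 in the deposited values. After that step lead was the higher side in all 3 genotypes, by 0.09 in Mt-KO, 0.12 in heterozygous and 0.10 in wild-type brain. Lead and saline pools still overlapped, with Mt-KO lead at 14.32 and wild-type saline at 14.35. The fitted lead difference after that step was 0.10 (limma adjusted p = 0.94). How many of all genes had lead higher in all 3 genotypes was not counted. The GC-RMA differences in the same pairs were 0.00, 0.12 and 0.11, and those of PLIER were 0.36, 0.62 and -0.50. Of the 4 other probe sets, 1437497_a_at followed the main one, and 1426645_at was higher with lead by 0.27 in Mt-KO and 0.41 in heterozygous brain and differed by -0.05 in wild-type brain. The remaining 2 were dim, and 1433251_at spanned 0.06 over the pools.

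Dnajb1 is the J-domain protein that feeds clients to HSP70 and is itself induced by HSF1. Its main probe set measured 11.58 with lead and 11.49 with saline in Mt-KO brain, 11.74 with lead and 11.51 with saline in heterozygous brain, and 11.44 with lead and 11.87 with saline in wild-type brain. The wild-type saline pool was the highest and the wild-type lead pool the lowest of the 6. The fitted lead difference was -0.04 (SE 0.15, limma adjusted p = 1.0). The wild-type difference of -0.43, which is -0.24 relative to the median gene, was -0.81 with GC-RMA and -0.63 with PLIER. The second Dnajb1 probe set, 1416756_at, measured 10.46 in the wild-type lead pool and 10.35 in the wild-type saline pool, so it did not show the high wild-type saline value under RMA, and with GC-RMA lead was higher by 0.19 and with PLIER by 0.07.

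Hsph1 encodes HSP110, which resets HSP70 by nucleotide exchange and helps to take aggregates apart. It measured 12.80 with lead and 12.70 with saline in Mt-KO brain, 12.99 with lead and 12.75 with saline in heterozygous brain, and 12.77 with lead and 13.15 with saline in wild-type brain. The wild-type saline pool was the highest and heterozygous lead the next, and the fitted lead difference was -0.01 (SE 0.20, limma adjusted p = 1.0). The other Hsph1 probe set had its highest value in the Mt-KO lead pool, at 11.41, and its lowest in the wild-type lead pool, at 10.91, with 11.18 in the wild-type saline pool. Bag3, a nucleotide exchange factor that also routes aggregates to autophagy, lay between 8.919 and 8.999 in all 6 pools. Its GC-RMA values, 3.25 to 3.73, are near the bottom of that scale, and no lead difference was readable at this signal.

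Hspb1, or HSP27, is a small chaperone that holds unfolded proteins without ATP and is expressed in brain mainly by glia, vessels and some neurons. It was the 1 of the 7 members tested whose 3 lead values all lay on one side of the 3 saline values, at 11.113, 11.137 and 11.123 in Mt-KO, heterozygous and wild-type lead brain, against 11.105, 11.103 and 10.978 in the saline pools of these genotypes. The gap between the groups, 0.0083 within the Mt-KO pair, was far below the SE of the fit. Of all genes tested, 5.27% had lead and saline pools apart in this way. The fitted lead difference was 0.06 (SE 0.14, limma adjusted p = 1.0). After quantile normalization lead was the lower side in Mt-KO (-0.10) and heterozygous brain (-0.10) and the higher side in wild-type brain (0.31). A second probe set, 1425964_x_at, spanned 0.11 with no order. Its GC-RMA values, 2.39 to 2.53, are near the bottom of that scale, so it is a weak check. The main probe set had GC-RMA values of 7.68 to 7.86.

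Cryab encodes alphaB-crystallin, a small heat shock protein abundant in lens, muscle and oligodendrocytes and present in astrocytes. Its main probe set measured 9.38 with lead and 9.36 with saline in Mt-KO, 9.48 with lead and 9.57 with saline in heterozygous, and 9.42 with lead and 9.74 with saline in wild-type brain. The wild-type saline pool was set apart more clearly by the other summaries and by another probe set. With GC-RMA the main probe set measured 7.54 in that pool and 5.96 to 6.16 in the other 5, and with PLIER, a linear intensity, 650.2 against 423.8 to 490.1. The probe set 1434369_a_at had RMA values of 9.08 with lead and 8.97 with saline in Mt-KO, 9.17 with lead and 9.27 with saline in heterozygous, and 8.93 with lead and 9.76 with saline in wild-type brain. Its GC-RMA value in wild-type saline was 10.93, against 9.60 to 10.21 elsewhere. The dim probe set 1435837_at stayed between 6.05 and 6.17 and had its highest value in wild-type lead.

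The high Cryab value of the wild-type saline pool rests on 1 pool, and the fitted lead difference, -0.13 (SE 0.11, limma adjusted p = 1.0), did not pass. The 9 measured myelin markers of 10 listed averaged 10.86 in the wild-type saline pool, within the range of the other 5 pools, 10.71 to 11.27. The 6 measured lens and retina markers of 7 averaged 8.16 there against 8.08 to 8.22, and the 7 skeletal muscle markers 8.52 against 8.46 to 8.70. Cryaa, the lens partner of Cryab, measured 8.34 in wild-type saline and 8.48 to 8.60 in the others. The Gapdh 3' excess was largest in the same pool, and its part in the Cryab result was not tested.

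**Figure D2:**
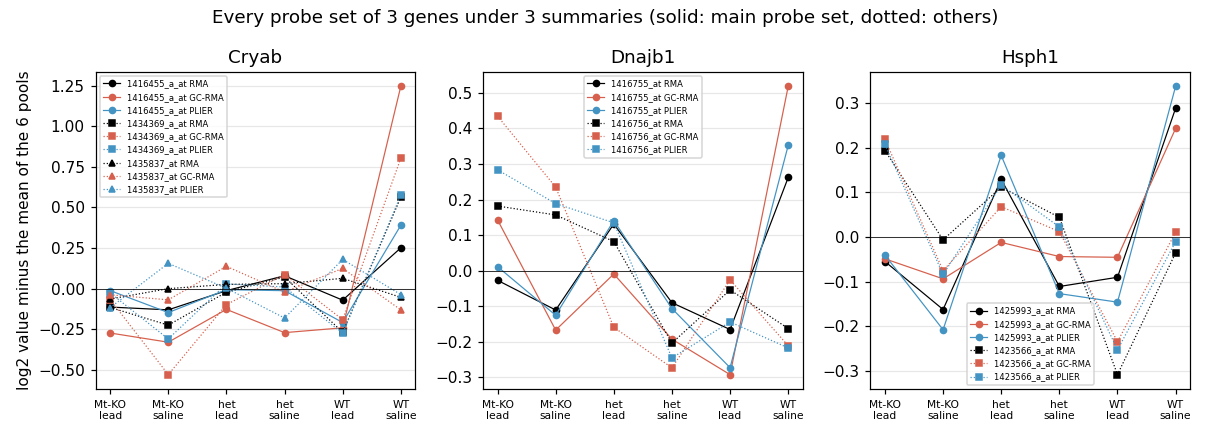
Each probe set of Cryab, Dnajb1 and Hsph1 in the 6 pools (x axis) as log2 value minus its mean over the pools (y axis), for RMA, GC-RMA and PLIER (as log2 of the value plus 16); solid lines are main probe sets and dotted lines the others. The main probe sets all peak in wild-type saline, 1 further Cryab probe set does too, and the second probe sets of Dnajb1 and Hsph1 do not.

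Across the 7 members tested, none passed for lead (limma, Benjamini-Hochberg over 10916 genes), where 0.119% of all genes did. Few genes of any kind had an unadjusted p under 0.05: 0 of the 7 members and 167 of the 10916 genes. The median lead difference of the members was -0.01 and that of all genes 0.02. Lead was lower in wild-type and higher in both other genotypes for 4 of the 7, namely Hspa8, Hsp90aa1, Hsph1 and Dnajb1, but 60.7% of all genes had that order. By main probe set, the wild-type saline pool was the highest of the 6 for 6 of the 7 members in the deposited RMA values, against 41.6% of genes. After quantile normalization it was the highest for 4 of the 7 (Hspa1b, Hsph1, Dnajb1 and Cryab), against 24.7% of genes. For Hspa1b the deposited values were close, 9.9031 there and 9.8987 in heterozygous lead. Of these members' other probe sets, Hspa8 1455789_x_at, Hsp90aa1 1437497_a_at and Cryab 1434369_a_at also had their highest RMA value in wild-type saline. The rest had it in other pools, among them both dimmer Hspa1b probe sets, in heterozygous lead. At a limit of 1.5-fold from the median gene, no main probe set passed between lead and saline in Mt-KO (0.311% of genes did), heterozygous (0.44%) or wild-type brain (1.64%). Of all 23 probe sets 1 did, Cryab 1434369_a_at in wild-type brain, at -0.65.

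**Figure D3:**
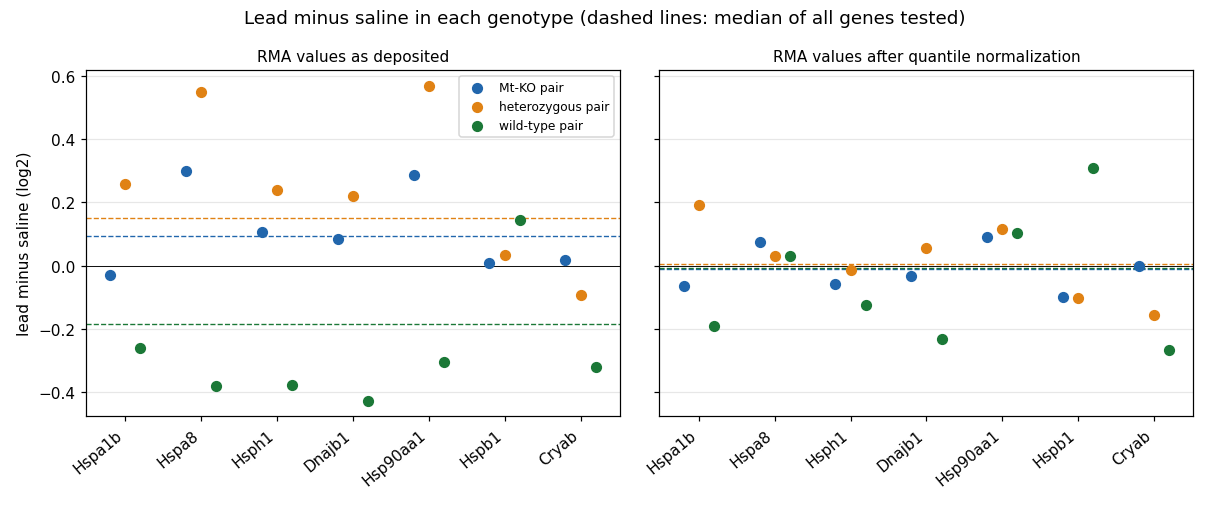
Lead minus saline (log2, y axis) of 7 members (x axis) in the Mt-KO, heterozygous and wild-type pairs, from RMA values as deposited (left) and after quantile normalization (right), each point 1 pool against 1; dashed lines give the median of all genes tested in the pair. On the left the wild-type points lie below 0 for 6 of the 7 genes; on the right Hspa8 and Hsp90aa1 lie within 0.12 of 0 in every genotype, and Dnajb1, Cryab and Hspa1b keep wild-type differences of -0.23, -0.27 and -0.19.

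Genotype was compared with treatment as a block, 2 pools against 2. No member passed for Mt-KO minus wild-type, where 0.431% of genes did, or for heterozygous minus wild-type, where 0.119% did. An unadjusted p under 0.05 was found for 0 of the 7 in either. Of the 10916 genes, 382 had one for Mt-KO and 131 for heterozygous. Hsp90aa1 was -0.51 (SE 0.40) and Hspa8 -0.49 (SE 0.45) in Mt-KO relative to wild-type, each with a limma adjusted p of 1.0, and the other 5 ranged from -0.21 to 0.06. Without the wild-type saline pool Hsp90aa1 was -0.14 and Hspa8 -0.09. The heterozygous differences ranged from -0.16 to 0.07. With GC-RMA Cryab was -0.80 in Mt-KO and -0.70 in heterozygous relative to wild-type brain, against -0.21 and -0.06 with RMA, and neither GC-RMA value passed. The members' medians were -0.21 for Mt-KO and -0.06 for heterozygous, against -0.03 and 0.00 over all genes.

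By main probe set (RMA), Hsp90aa1, Hspa8, Hsph1 and Cryab had their lowest value in the Mt-KO saline pool. The Hsp90aa1 probe set 1426645_at was lowest in heterozygous saline, at 13.28. Between Mt-KO saline and wild-type saline, Hsp90aa1 was -0.66 and Hspa8 -0.68 relative to the median gene, past the 1.5-fold limit that 3.02% of genes passed. Among the 23 probe sets 4 passed it, with Hspa8 1455789_x_at at -0.77 and Cryab 1434369_a_at at -0.64 beside these. Between Mt-KO lead and wild-type lead none of the 23 passed, and 0.843% of genes did. The deposited differences were -0.81 for Hsp90aa1 and -0.83 for Hspa8, and after quantile normalization they were -0.12 for Hsp90aa1 and -0.04 for Hspa8. With GC-RMA they were -0.12 for Hsp90aa1 and -0.26 for Hspa8, with PLIER -0.94 for Hsp90aa1 and -0.88 for Hspa8, and the Hsp90aa1 probe set 1426645_at measured 13.37 in Mt-KO saline and 13.33 in wild-type saline. These 2 pools are the ends of the range in Gapdh 3' excess, at 0.54 in Mt-KO saline and 1.19 in wild-type saline. They are also the ends of the range in the mean of the 8 neuron markers, at 13.71 in Mt-KO saline and 14.36 in wild-type saline, and the fitted Mt-KO difference of these markers had a median of -0.40. The 2 pools also differed in sex-linked genes, with Eif2s3y at 6.50 in Mt-KO saline and 10.45 in wild-type saline. Xist measured 12.75 in Mt-KO saline, its highest value, and 11.91 in wild-type saline. The part of any of these in the chaperone values was not tested.

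Leaving out the wild-type lead pool changed the genotype calls; the lone wild-type pool is then taken to vary like the others. Without it 6 of 7 members were lower in Mt-KO, from -0.29 for Hspa1b to -0.89 for Hspa8 (limma adjusted p = 0.0016 to 0.043), but 36.3% of all genes were called lower as well. Hsph1 and Dnajb1 were then also lower in heterozygous brain, at -0.37 and -0.32 (limma adjusted p = 0.031 and 0.017), where 19.7% of genes were. Without the wild-type saline pool, Dnajb1 was instead higher in heterozygous brain by 0.26 (limma adjusted p = 0.033), and 23.2% of genes were. In heterozygous brain the direction for Dnajb1 thus turned with which of the 2 wild-type pools was kept. Hsph1, Hspa1b, Hsp90aa1, Hspa8 and Cryab also turned there, with Hsph1 at 0.19 without the wild-type saline pool. In Mt-KO, leaving out that pool gave 0.17 for Dnajb1, 0.09 for Hspa1b and 0.07 for Hsph1. Hsp90aa1 was then -0.14, Hspa8 -0.09 and Cryab -0.07. For the main probe set of each of these genes the wild-type saline pool was the highest in the deposited RMA values. With GC-RMA, Hspa1b and Hspa8 were instead highest in heterozygous lead, and Hsp90aa1 in wild-type lead.

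Whether the lead difference changed with the number of intact alleles was fitted as an interaction. It passed for 3.77% of genes, 47 of them with a higher and 365 with a lower lead difference per allele, and for none of the 7 members. Of the genes that passed, 51 of 142 had a higher difference with PLIER and 11 of 20 with arrays centred on their median. Dnajb1 came closest, at -0.26 per allele (SE 0.13, 95% interval -0.50 to -0.01), with an unadjusted limma p of 0.045 and an adjusted p of 0.24. It was the 1 of the 7 with an unadjusted p under 0.05, as were 2194 of the 10916 genes tested and 15 of the 69 tested genes of the chaperone lists described further on. Hspa8 was -0.34 (SE 0.35), Hsp90aa1 -0.30 (SE 0.30) and Hsph1 -0.24 (SE 0.17), and the median of the members was -0.24 against -0.15 for all genes. For Hspa1a, fitted with no brightness limit, the interaction was -0.24 (limma unadjusted p = 0.047, adjusted p = 0.27).

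The members' deposited values were correlated with each other over the 6 pools. These coefficients are descriptions without a test, since the genes share arrays. Hspa8 and Hsp90aa1 had r = 0.9965 as deposited and 0.75 after quantile normalization. The inducible genes Hsph1 and Dnajb1 had r = 0.97 and 0.89 in the same order, Hspa1b and Dnajb1 0.93 and 0.88, and Hsph1 and Cryab 0.77 and 0.85. Other inducible pairs fell further, with 0.91 and 0.69 for Hspa1b and Hsph1. Hsp90aa1 had 0.89 and -0.02 with Hsph1, and 0.77 and 0.06 with Dnajb1. Hspa8 with Dnajb1 had 0.82 as deposited and -0.16 after quantile normalization, and Hspa8 with Hsph1 had 0.92 as deposited and -0.43 after that step. Hspb1 ran against all others, with r from -0.83 to -0.39 in the deposited values. After quantile normalization it had -0.85 with Dnajb1 and -0.0032 with Hsp90aa1. Members also followed the median of the genes tested in each pool, with r of 0.90 for Dnajb1, 0.81 for Hsph1 and 0.81 for Hspa1b. That r was 0.67 for Hspa8, 0.62 for Hsp90aa1, 0.42 for Cryab and -0.43 for Hspb1.

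The tested genes most like Hspa8 over the 6 deposited values were Cntn1, an adhesion protein of axons, Eif5a and Eef1a1, both translation factors, Mef2c, a neuronal transcription factor, and Atp1b1, a sodium pump subunit, with r of 0.9988 to 0.9997. Hsp90aa1 ranked 32 and Hsph1 1118 among genes by this measure. Of the 10916 genes tested, 734 had r of 0.95 or more, so the pattern was not particular to Hspa8. Among the members only Hsp90aa1 reached that r. Hsph1 had 0.92, Hspa1b 0.84, Dnajb1 0.82, Cryab 0.64 and Hspb1 -0.43.

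The rest of the chaperone network was read from 9 lists, with 80 of 85 genes measured and 69 tested. None passed for lead, Mt-KO or heterozygous (limma), and their median lead difference was 0.03. At an unadjusted p under 0.05 there were 0, 1 and 0 of them, against 167, 382 and 131 of the 10916 genes tested. Among HSP90 cochaperones, 14 tested, the largest lead differences by t were those of Sgta, at 0.26, a glutamine-rich adaptor for tail-anchored proteins, and Cdc37, at 0.20, which brings kinases to HSP90. The mitochondrial HSP70 Hspa9 was 0.22 and the mitochondrial chaperonin Hspd1 0.12. All 4 have a limma adjusted p of 1.0. Sgta measured 12.51 with lead and 12.35 with saline in Mt-KO, 12.48 with lead and 12.29 with saline in heterozygous, and 12.39 with lead and 11.97 with saline in wild-type brain, so that the wild-type saline pool was the low one.

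The prefoldin subunits Pfdn4 and Pfdn1, which hand unfolded actin and tubulin to the chaperonin TRiC, had lead differences of -0.17 and -0.13. Of the HSP70 cochaperones Bag6 and Bag4 both had 0.13, and of the J-domain proteins Dnajc7, which passes clients between HSP70 and HSP90, had 0.13 and Dnajc2, a ribosome-bound partner of HSP70, -0.08. Hspa14, an HSP70 relative at the ribosome, had -0.05, Hspb3, a small chaperone, -0.12, and Hsbp1, which binds and restrains HSF1, -0.03. Of other genes known to respond to HSF1, Sqstm1, the autophagy receptor p62, had 0.13 and Serpinh1, the collagen chaperone, 0.10. None of these passed (limma adjusted p = 1.0 each).

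For the interaction, 3 of the 69 passed, against 3.77% of all genes, each with a lower lead difference per intact allele. Hspa2, an HSP70 best known from the testis, was -0.48 per allele (limma adjusted p = 0.0021), with 10.58 with lead and 9.97 with saline in Mt-KO, 10.23 with lead and 10.28 with saline in heterozygous, and 9.82 with lead and 10.17 with saline in wild-type brain. Hspb11, a ciliary transport protein that carries a small heat shock name, was -0.42 (limma adjusted p = 0.0087), with a wild-type lead pool at 9.52 and a wild-type saline pool at 10.16. Mrpl18, a mitochondrial ribosomal protein, was -0.37 (limma adjusted p = 0.028). All 3 coefficients stayed negative under the 14 alternatives, but some of these could not change a coefficient. Leaving out a heterozygous pool, no trend and no brightness limit gave each main value again, as did the mean over probe sets for Hspa2 and Mrpl18. The calls depended on the scaling. After quantile normalization the limma adjusted p was 0.23 for each, and with GC-RMA it was 0.41 for Hspa2 and 0.39 for Hspb11 and Mrpl18. With arrays centred on their median it was 0.11, 0.15 and 0.19 for Hspa2, Hspb11 and Mrpl18. None of the 3 passed without the Mt-KO saline, wild-type lead or wild-type saline pool, and over the alternatives Hspa2 passed in 7, Hspb11 in 4 and Mrpl18 in 3. Hspa2 was highest in the Mt-KO lead pool, the pool with the most Eif2s3y, and the part of sex in this was not tested.

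**Figure D4:**
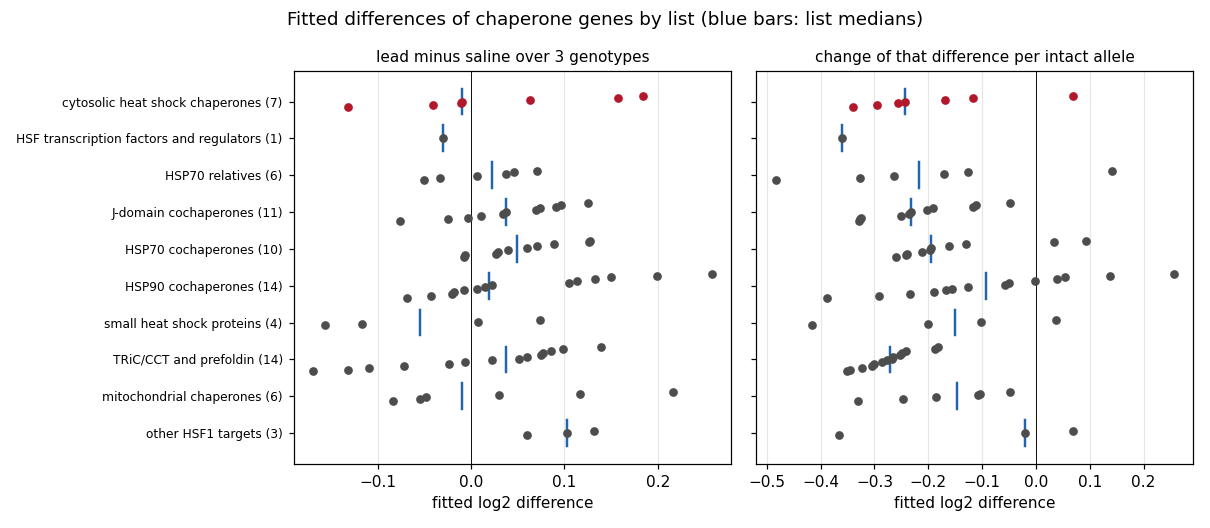
Fitted log2 difference (x axis) of every tested gene of the 7 heat shock chaperones (red) and of 9 chaperone lists (grey), by list (y axis, number of genes tested in parentheses), for lead minus saline (left) and for its change per intact allele (right); blue bars are list medians. Lead differences run from -0.17 to 0.26 with list medians near 0, while most interaction values lie below 0, as does the median of all genes tested (-0.15).

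Of the other stress responses, 10 immediate early genes averaged 9.705 with both lead and saline in Mt-KO brain, 9.81 with lead and 9.64 with saline in heterozygous, and 9.66 with lead and 9.81 with saline in wild-type brain. The 8 targets of NRF2, the factor that answers oxidants, averaged 10.19 with lead and 10.09 with saline in Mt-KO, 10.19 with lead and 10.06 with saline in heterozygous, and 9.98 with lead and 10.11 with saline in wild-type brain. In both lists lead was the higher side in heterozygous and the lower in wild-type brain, as for the median gene. None of the 6 and 5 genes tested passed for lead (limma). An unadjusted p under 0.05 was found for 0 of them, and for 167 of all 10916 genes tested.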

How the data were processed

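Expression was measured on 6 arrays, each of 1 pool of 5 pups. The 18 deposited columns hold these arrays summarised in 3 ways, so each pool counted once. Per the submitters' processing notes Partek, RMA, GCRMA and PLIER were used. Their versions are not given in the sources used here. RMA and GC-RMA columns were deposited as log2 values, and the PLIER columns as linear intensities, taken here as log2(value + 16). The labels name a labelling kit for whole-transcript arrays, while the probe set names belong to a 3' array.

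Of 45101 probe sets, those with a single symbol in the platform annotation were kept (34958; 932 had several, 9211 none), and 34754 of them matched the GRCm38.p6 gene table by identifier. The brightest probe set stood for each of 18194 genes. Tests ran on the brightest 60% of genes (10916) in limma 3.58.1 under R 4.3.3, with a trended prior, two-sided p-values and a Benjamini-Hochberg threshold of 0.05. Lead and genotype came from an additive model, and the interaction from treatment by number of intact alleles, taken as linear. Each leaves 2 residual degrees of freedom, and the genotypes serve as replicates of lead. In the main fit and with PLIER limma estimated an infinite prior, so a gene's spread there is that typical of its brightness. With GC-RMA and quantile normalization the prior was finite, with 4.8 to 6.4 degrees of freedom. The models were tested on simulated data. The number of arrays limits the precision, and p-values rest on what the model leaves over between pools.

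Named were all members, the 5 genes most correlated with the member of the widest span and, in each chaperone list, the genes that passed and the 2 with the largest lead t. Members and lists were chosen with earlier results of these data known. Alternatives were GC-RMA, PLIER, quantile normalization, centred arrays, other brightness limits, the mean over probe sets, no trend, no genotype block and leaving out pools. Cyclic loess, and leaving out pools in the interaction model, were added after seeing the data.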

Additional observations from a re-analysis of the deposited data

How the results depend on the processing

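Apart from leaving out pools, no alternative called any of the 7 members in any comparison. Counts over all genes did move. For lead (13 genes) they fell to 0 with GC-RMA, quantile normalization, centred arrays, no brightness limit, the mean over probe sets, no trend, no genotype block and cyclic loess, and to 4 in the upper 40% of genes; at an unadjusted limma p under 0.05 these settings gave 74 to 552 genes. For Mt-KO (47) the count was 0 with GC-RMA and cyclic loess (592 and 1020 at an unadjusted p under 0.05), 1 after quantile normalization, 7 with centred arrays, 6 with no limit, 20 in the upper 40%, 10 with the mean over probe sets and 4 with no trend. For heterozygous (13) it was 6 in the upper 40% and 0 in 7 settings (GC-RMA, quantile normalization, centred arrays, no limit, the mean over probe sets, no trend, cyclic loess; 73 to 326 at an unadjusted p under 0.05). For the interaction (412) it was 0 with GC-RMA and cyclic loess (1241 and 1760 at an unadjusted p under 0.05), 142 with PLIER, 1 after quantile normalization, 20 with centred arrays, 92 with no limit, 99 in the upper 40% and 79 with no trend. Not every count fell. With PLIER 68 genes passed for Mt-KO, 10 for heterozygous and 13 for lead. Of these 13, 2 were higher with lead, against 9 in the main fit. With the mean over probe sets 508 genes passed for the interaction.

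Members' differences that turned sign without leaving out a pool were all under 0.1 and uncalled. For lead they were Hspa1b with PLIER (0.0085) and with the mean over probe sets (0.0017), and Dnajb1 with that mean (0.0494). For Mt-KO they were Hspb1 with GC-RMA (-0.0275) and, with the mean, Hsph1 (0.0288) and Dnajb1 (0.0802). For heterozygous they were Hspa8 after quantile normalization (0.0194) and, with the mean, Hspa1b (0.0618), Hsph1 (0.0798), Dnajb1 (0.0099) and Hsp90aa1 (0.0042). For the interaction they were, with GC-RMA, Hspa1b (0.0822), Hspb1 (-0.0613) and Hsp90aa1 (0.0536), then Hsp90aa1 after quantile normalization (0.0067) and Hspa1b with centred arrays (0.0211). The cause was not tested.

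With pools left out, the genes called ranged from 1 to 2632 for lead (2632 without the wild-type pair), 8 to 4380 for Mt-KO (4380 without wild-type lead and 2429 without wild-type saline), 3 to 2627 for heterozygous (2421 without wild-type lead, 2627 without wild-type saline) and 15 to 1029 for the interaction (17 without wild-type lead, 15 without wild-type saline and 1029 without Mt-KO lead). Members called ranged from 0 to 6 for Mt-KO and from 0 to 2 for heterozygous, with those counts above 0 when a wild-type pool was left out. Lead differences ranged from -0.14 to 0.12 for Hspa1b, -0.14 to 0.17 for Hsph1, -0.17 to 0.15 for Dnajb1, -0.0082 to 0.43 for Hsp90aa1 and -0.0404 to 0.43 for Hspa8. Mt-KO differences ranged from -0.29 to 0.0871 for Hspa1b, -0.0036 to 0.12 for Hspb1, -0.48 to 0.0683 for Hsph1 and -0.41 to 0.17 for Dnajb1. Heterozygous differences ranged from -0.21 to 0.20 for Hspa1b, -0.37 to 0.19 for Hsph1, -0.32 to 0.26 for Dnajb1, -0.53 to 0.20 for Hsp90aa1, -0.55 to 0.26 for Hspa8 and -0.20 to 0.0859 for Cryab. Interactions ranged from -0.36 to 0.13 for Hspa1b, -0.68 to 0.0862 for Hsp90aa1 and -0.73 to 0.0542 for Hspa8. Lead and saline pools were paired by genotype in the lead fit and the genotypes by treatment in the genotype fit. No paired analysis by replicate number was run, since the labels give none.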
